A study of Rattus norvegicus with 24 samples.

Results

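The retinal transcripts of the endothelin system were followed here through 5 genes, of 4013 with a symbol on the array, and through the 8 probes that mapped to them, of 33911 in all. The genes looked for were Edn1, Edn2, Edn3, Ednra, Ednrb and Ece1, and a probe was taken if the RefSeq accession given for it belonged to one of these symbols. Edn2 and Ece1 had 1 probe each, and Edn1, Ednra and Ednrb had 2 probes each. No probe mapped to Edn3, which is not analysed here. Retinas came from male Sprague Dawley rats that had received streptozotocin (STZ), a toxin of the insulin-producing beta cells that makes rats diabetic, or vehicle only. RNA was taken 1 month or 3 months after the injection, with 6 arrays in each of the 4 groups (1M Control, 1M STZ, 3M Control and 3M STZ), and the diabetic rats of this model carry a toxin-induced lack of insulin and no genetic defect. The animal list of the study is 1 short of these arrays in the 1M Control group, and all 24 arrays were kept. Edn2 and Ednrb were among the genes that the study selected for qPCR, so their direction on these arrays is not independent evidence.

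Endothelins are small peptides that constrict vessels, cut from longer precursors. Edn1 is the form best known from vascular endothelium, and Edn2 is a close relative that photoreceptors of the retina are known to produce after injury. Ece1 encodes the membrane protease that releases the active peptides from their inactive precursors. Ednra and Ednrb encode the G protein-coupled receptors, the former known from smooth muscle and pericytes and the latter from endothelium, Mueller glia and astrocytes.

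The sequences upstream of the transcription starts of Edn2, Ednrb and Edn1 are shown because these genes had the largest, the next largest and the smallest 3 month difference among the genes with a tested probe. They are the 250 bases before the start annotated by RefSeq in the rat assembly GRCr8, and no start was measured on these arrays. RefSeq entries were found for 5 of the 6 genes. Capitals mark matches, on either strand, to 6 motifs: the GC box GGGCGG, the TATA box TATAAA, the AP-1 site TGANTCA, the hypoxia response core ACGTG, the STAT site TTCNNNGAA and the GATA site AGATAA.
Edn2, chr5:139036326-139036575, plus strand: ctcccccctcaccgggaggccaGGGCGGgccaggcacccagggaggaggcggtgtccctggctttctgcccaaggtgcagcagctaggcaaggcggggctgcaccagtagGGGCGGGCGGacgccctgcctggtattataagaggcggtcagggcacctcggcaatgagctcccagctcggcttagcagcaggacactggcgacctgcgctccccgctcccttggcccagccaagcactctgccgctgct
Ednrb, chr15:87086766-87087015, minus strand: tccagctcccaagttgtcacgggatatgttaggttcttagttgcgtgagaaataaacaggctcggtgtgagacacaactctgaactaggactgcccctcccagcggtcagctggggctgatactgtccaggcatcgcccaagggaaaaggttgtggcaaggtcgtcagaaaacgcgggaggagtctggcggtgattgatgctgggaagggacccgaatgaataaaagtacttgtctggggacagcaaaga
Edn1, chr17:22666688-22666937, minus strand: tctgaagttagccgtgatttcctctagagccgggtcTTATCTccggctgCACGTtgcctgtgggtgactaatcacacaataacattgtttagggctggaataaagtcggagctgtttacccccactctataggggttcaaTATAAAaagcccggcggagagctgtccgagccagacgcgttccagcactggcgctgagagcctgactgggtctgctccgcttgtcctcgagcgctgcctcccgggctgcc
The Edn2 sequence held 3 GC boxes, and 2 of them overlapped in the run GGGCGGGCGG, which begins 140 bases before the start. A GC box was present in 30.5% of the 33469 rat sequences of the same length. The Edn1 sequence held a TATA box that begins 110 bases before the start, a hypoxia response core and a GATA site, motifs found in 12.9%, 16.6% and 10.3% of all sequences. The Ednrb sequence held none of the 6 motifs, of which the AP-1 and STAT sites occurred in 6.34% and 7.67% of all sequences. Its GC content was 53.2%, against 69.6% for Edn2 and 56.4% for Edn1. These matches describe letters only.

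All values below are scaled intensities, that is, the background-subtracted brightness of a spot divided by the median of the rat probes on its array. The limit for testing was a median of 0.554 over all arrays, the 35th percentile of the probes. It was passed by 5 of the 8 probes, namely Edn2 GE19812, Edn1 GE19811, Ednrb GE22139, Ednrb GE20507 and Ece1 GE21591. Ednra GE21822 (median 0.539) was just under this limit, Edn1 GE19811 (median 0.751) was the tested probe nearest above it, and Ednra GE19813 (0.248) and Edn1 GE21830 (0.138) were further below. The 62 bacterial control probes, which match no rat transcript, gave a second yardstick: their 95th percentile was between 0.632 and 1.72 on single arrays. Brightness of different probes was not compared, because it depends on the probe as well as on the transcript. In RNA of a whole retina, fewer cells of a type and less RNA per cell cannot be told apart.

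The arrays themselves differed between groups. The interquartile range of log2 intensity was 3.36 to 3.67 on the 1 month arrays, 1.48 to 2.23 on the 3M Control arrays and 2.07 to 2.70 on the 3M STZ arrays. Array 3M Control 2 stood apart, with a median correlation of 0.842 to the other arrays of its group. The labels give no processing date, so time point and array set cannot be told apart. At 3 months the median log2 difference (STZ minus control) over the 22025 tested probes was 0.44, and 50.5% of them were called higher in STZ, at a Benjamini-Hochberg adjusted p under 0.05 in limma and at least a 1.2-fold difference. At 1 month the median was 0.01. Rod photoreceptor markers, which define retina, had 5 probes, all of them tested, with summed scaled intensities between 159 and 486.

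**Figure D1:**
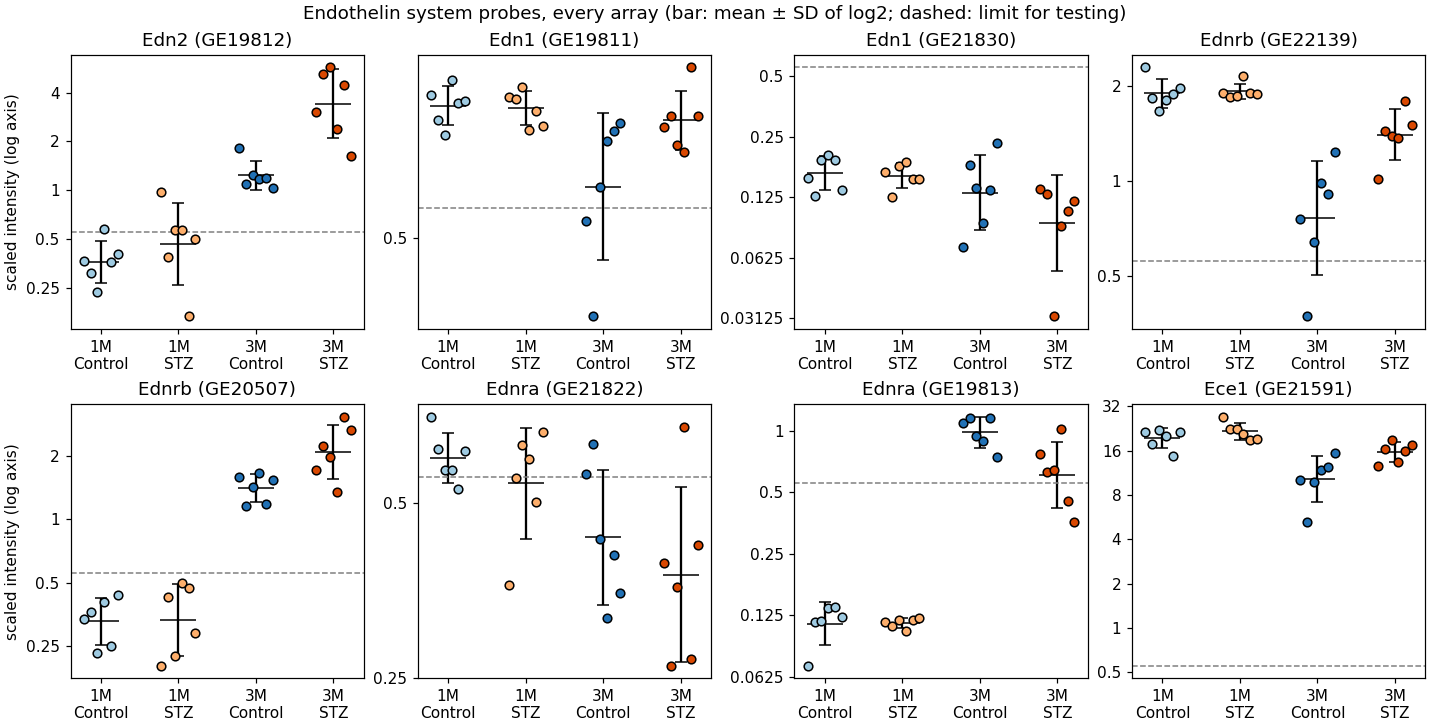
Scaled intensity (log axis) of each of the 8 probes on every array, with 6 points per group and the mean ± SD of log2 values as bars. The dashed line is the limit for testing (0.554). Edn2 was highest in the 3M STZ arrays, and the probes of Ednrb (GE22139 and GE20507) placed the time points in opposite order.

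Among the ligands, Edn2 gave the largest difference of the system. On the 1M Control arrays 1 to 6 its scaled intensity was 0.366, 0.309, 0.235, 0.577, 0.363 and 0.404. On the 1M STZ arrays it was 0.977, 0.386, 0.570, 0.566, 0.167 and 0.504. These groups overlapped, and 4 of the 12 arrays were above the limit for testing. On the 3M Control arrays Edn2 was 1.82, 1.09, 1.24, 1.17, 1.19 and 1.03, and on the 3M STZ arrays it was 3.04, 5.24, 5.73, 2.37, 4.46 and 1.64. Thus 5 of 6 STZ arrays exceeded every control array, and STZ array 6 fell below control array 1. The signal was above the bacterial 95th percentile on all 6 of the 3M STZ arrays, on 2 of the 3M Control arrays and on 1 of the 12 arrays at 1 month.

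At 3 months Edn2 was 2.76-fold higher in STZ (95% interval 1.77 to 4.32). The log2 difference was 1.47 with an SE of 0.31 (adjusted p = 0.00095 by limma), which placed it at the 99.3rd percentile of the tested probes and 1.02 above their median. An exact two-sided permutation test over the 12 arrays gave p = 0.00433, or 0.0346 after adjustment over the 16 such tests of the 8 probes at both time points. At 1 month the log2 difference was 0.36 with a 95% interval of -0.28 to 1.01 and an adjusted p of 1.00 by limma, so a change was not detectable at that signal. The 3 month effect exceeded the 1 month effect by 1.10 (SE 0.44), and this difference did not pass the threshold (adjusted p = 0.0746 by limma).

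Edn1 was dim on both of its probes. For GE19811 the scaled intensity ranged from 0.716 to 0.867 (median 0.805) on the 1M Control arrays and from 0.730 to 0.848 (median 0.797) on the 1M STZ arrays. On the 3M Control arrays it was 0.531, 0.379, 0.597, 0.700, 0.726 and 0.748, and on the 3M STZ arrays 0.736, 0.767, 0.693, 0.676, 0.908 and 0.765. The 3 month groups overlapped, with 3 of 6 STZ arrays above every control array, and no 3 month array was above the bacterial 95th percentile. The probe was called 1.26-fold higher in STZ at 3 months (log2 difference 0.33, SE 0.14, adjusted p = 0.0459 by limma), which was 0.11 below the median of all tested probes. The exact two-sided permutation test gave p = 0.0541, or 0.144 adjusted over the 16 tests. The call was lost without any of 16 of the 24 arrays, and without 3M Control 2 the log2 difference was 0.20 (adjusted p = 0.138 by limma). At 1 month the log2 difference was -0.01 (95% interval -0.30 to 0.28).

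The second Edn1 probe, GE21830, was under the limit on all 24 arrays, between 0.0318 and 0.234. In a fit of all 33849 rat probes without the filter its log2 difference at 3 months was -0.50 (SE 0.29, adjusted p = 0.147 by limma). Without 3M STZ 3, the lowest array, it was -0.19 (SE 0.23), and no difference was left once the 5th percentile was subtracted from each array. Neither Edn1 probe was above the bacterial 95th percentile at 3 months.

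Of the receptors, Ednrb was measured by 2 tested probes, and both were called higher in STZ at 3 months. On the 3M Control arrays GE22139 was 0.755, 0.371, 0.638, 0.979, 0.904 and 1.23, and on the 3M STZ arrays 1.01, 1.44, 1.39, 1.36, 1.79 and 1.5. All STZ arrays but array 1 were above the highest control array, array 6. This was a 1.83-fold difference (95% interval 1.40 to 2.41), with a log2 difference of 0.87, an SE of 0.19 and an adjusted p of 0.00113 by limma (exact two-sided permutation p = 0.00433, adjusted over the 16 tests 0.0346). It lay 0.43 above the median of all tested probes, at their 91.6th percentile. GE22139 was above the bacterial 95th percentile on 0 of 6 3M Control arrays and on 3 of 6 3M STZ arrays.

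For GE20507 the 3M Control arrays gave 1.58, 1.16, 1.43, 1.66, 1.18 and 1.54 and the 3M STZ arrays 1.70, 2.21, 1.98, 1.35, 3.05 and 2.64. Again 5 of 6 STZ arrays exceeded every control array, here with array 4 as the exception. The log2 difference was 0.56 (SE 0.22, adjusted p = 0.0374 by limma, exact two-sided permutation p = 0.0195, adjusted over the 16 tests 0.0623), or 1.47-fold. It was 0.12 above the median of all tested probes. The call on this probe was lost without any of 7 arrays at 3 months (control arrays 2, 3 and 5 and STZ arrays 2, 3, 5 and 6), with adjusted p up to 0.106.

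At 1 month neither Ednrb probe differed beyond the spread of the arrays. GE22139 was 2.28, 1.82, 1.66, 1.80, 1.88 and 1.96 on the control arrays and 1.90, 1.85, 1.85, 2.15, 1.89 and 1.88 on the STZ arrays, with a log2 difference of 0.02 (95% interval -0.37 to 0.41). GE20507 ranged from 0.232 to 0.435 (median 0.348) in control and from 0.201 to 0.495 (median 0.359) in STZ, all under the limit for testing, with a log2 difference of 0.01 (95% interval -0.45 to 0.47). GE22139 was the only tested probe of the system whose effect differed between the time points, by 0.86 on the log2 scale (SE 0.27, adjusted p = 0.0388 by limma), where 14.8% of all tested probes were called in this direction. The number of probes so called, 3253, was between 728 (without 3M STZ 6) and 8738 (without 3M Control 6) with 1 array left out. With the array spread as a covariate the difference of GE22139 was 0.30 (adjusted p = 0.925 by limma). The GE22139 call was lost without any of 13 of the 24 arrays (1M Control 1, 5 and 6, 1M STZ 2, 3, 5 and 6, 3M Control 1 and 3, and 3M STZ 2, 3, 5 and 6), with adjusted p up to 0.0720.

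The probes of Ednrb disagreed on the level at each time point. Mean log2 of GE22139 was 0.92 ± 0.15 (SD, n = 6) in 1M Control and -0.39 ± 0.60 in 3M Control, whereas that of GE20507 was -1.61 ± 0.37 and 0.50 ± 0.22. Every 1 month array was above every 3M Control array on the first probe and below it on the second. Whether retinal Ednrb was higher at 1 or at 3 months could thus not be read from these arrays, while within the 3 month set both probes were higher in STZ.

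**Figure D2:**
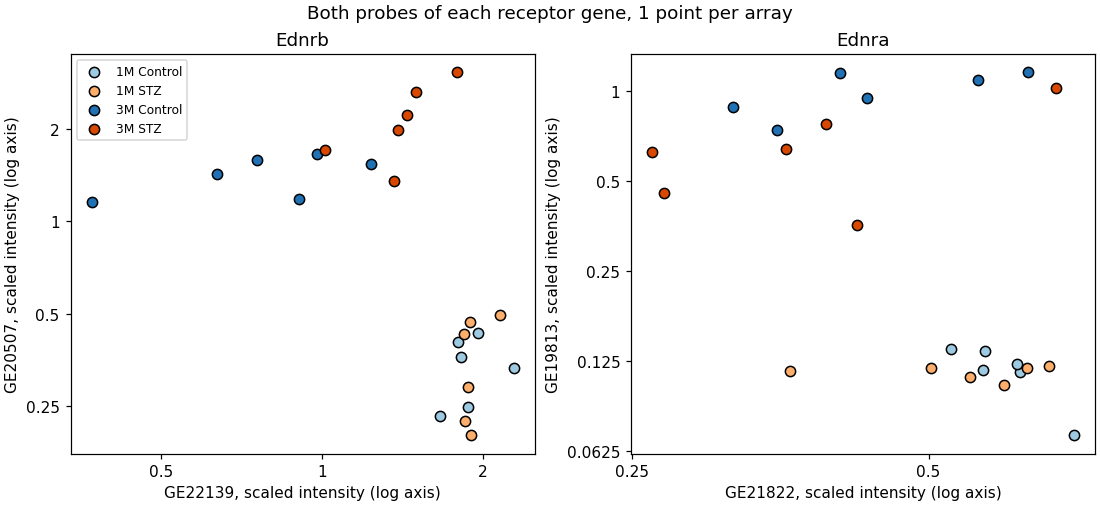
Scaled intensities (log axes) of both probes of Ednrb (left) and Ednra (right), 1 point per array, colored by group. The 1 month and 3 month arrays form separate clouds, and among the 3 month arrays 5 of 6 STZ arrays exceed every control array on each Ednrb probe, with a different exception on each.

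Ednra was under the limit for testing on both probes. For GE19813 the 1 month arrays lay between 0.0707 and 0.137. On the 3M Control arrays it was 1.09, 1.16, 0.949, 0.890, 1.16 and 0.744, and on the 3M STZ arrays 0.775, 0.627, 0.641, 1.02, 0.456 and 0.359. Here 4 of 6 STZ arrays were below every control array, although no array exceeded the bacterial 95th percentile. Without the filter the log2 difference was -0.69 (SE 0.20, adjusted p = 0.0092 by limma, exact two-sided permutation p = 0.0152, adjusted over the 16 tests 0.0606), that is, 1.61-fold lower in STZ, and 14.2% of all 33849 rat probes were called lower in that fit. With the array spread as a covariate the sign turned, to a log2 difference of 0.15 (SE 0.25).

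The other Ednra probe, GE21822, was 0.561, 0.630, 0.433, 0.316, 0.406 and 0.351 on the 3M Control arrays and 0.393, 0.262, 0.358, 0.674, 0.269 and 0.423 on the 3M STZ arrays. The groups overlapped, and the log2 difference was -0.21 (SE 0.20, adjusted p = 0.383 by limma, no filter). At 1 month the log2 differences of the Ednra probes were -0.15 (SE 0.20) and 0.01 (SE 0.20) for GE21822 and GE19813. A lower level of Ednra therefore rested on 1 dim probe of 2.

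Ece1, the converting enzyme, was well above the bacterial probes on all 24 arrays. The 1M Control arrays ranged from 14.6 to 22 (median 20.7) and the 1M STZ arrays from 18.9 to 27.1 (median 21.5), with a log2 difference of 0.16 (95% interval -0.22 to 0.54). On the 3M Control arrays it was 10.1, 5.27, 9.75, 11.9, 12.3 and 15.4, and on the 3M STZ arrays 12.7, 16.5, 18.8, 13.4, 15.9 and 17.4. At 3 months 4 of 6 STZ arrays were above every control array. The difference was 1.52-fold (log2 0.61, SE 0.18, adjusted p = 0.00923 by limma, exact two-sided permutation p = 0.0108, adjusted over the 16 tests 0.0577), 0.16 above the median of all tested probes.

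In all, 5 of 5 tested probes were called higher in STZ at 3 months, with the calls of Edn1 GE19811 and Ednrb GE20507 lost without single arrays. The probes under the limit are not in this count. Without the filter Ednra GE19813 was called lower (log2 difference -0.69, adjusted p = 0.0092 by limma). Edn1 GE21830 and Ednra GE21822 were not called. The limit applied to the median of all arrays. For probes as dim at 1 month as Ednrb GE20507 and Ednra GE19813, passing it depended largely on the lowest 3 month array. The count thus rests in part on the limit. Of all tested probes 50.5% were called higher, and the median log2 difference was 0.61 for the 5 and 0.44 over all. None of the 5 was called at 1 month, where 0.00908% of the tested probes were called, and none of the 5 had an unadjusted p under 0.05 in that limma fit, where 927 of the 22025 tested probes did. No probe of the system had all STZ arrays beyond all control arrays at either time point. Such separation was found in 9.49% of the tested probes at 3 months (STZ above control) and in 0.545% at 1 month.

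**Figure D3:**
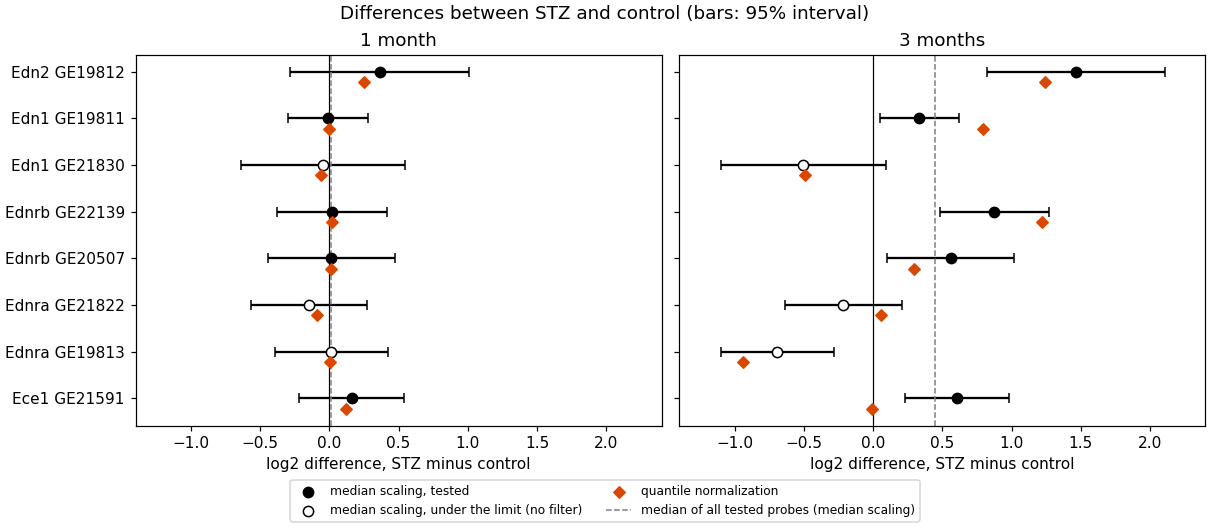
Log2 differences (STZ minus control) of the 8 probes at 1 and 3 months, with 95% intervals from limma as bars. Filled circles were tested, open circles were under the limit, orange diamonds are quantile-normalized values, and the dashed line is the median of all tested probes. At 3 months Edn2 stays near 1.47 and 1.24 under the different scalings, while Ece1 moves from 0.61 to -0.0056.

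The order of the genes at 3 months depended in part on how arrays were brought to a common scale. With quantile normalization, which gives all arrays the same distribution of values, the median difference of the tested probes was 0.16, and 24.6% were called higher in STZ. Edn2 (log2 difference 1.24, SE 0.28, adjusted p = 0.0015 by limma) and Ednrb GE22139 (1.22, SE 0.27, adjusted p = 0.00132 by limma) were called on this scale. Edn1 GE19811 was called as well, with 0.79 (SE 0.19). Ednrb GE20507 (0.30, SE 0.18) and Ece1 (-0.0056, SE 0.13) were not called. Thus Edn2 and 1 probe each of Ednrb and Edn1 were higher under both scalings, and the Ece1 difference was not.

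The spread of the arrays moved with the groups at 3 months. With the interquartile range of each array as a covariate, 0.0% of the tested probes were called, by limma at the same thresholds, and 1934 of 22025 had an unadjusted p under 0.05. In that fit the log2 difference was 1.38 (SE 0.52) for Edn2, 0.33 (SE 0.29) for Ednrb GE22139, 0.31 (SE 0.37) for Ednrb GE20507, 0.08 (SE 0.22) for Edn1 GE19811 and 0.05 (SE 0.27) for Ece1. Whether the spread had a part in the differences was not tested beyond this fit.

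**Figure D4:**
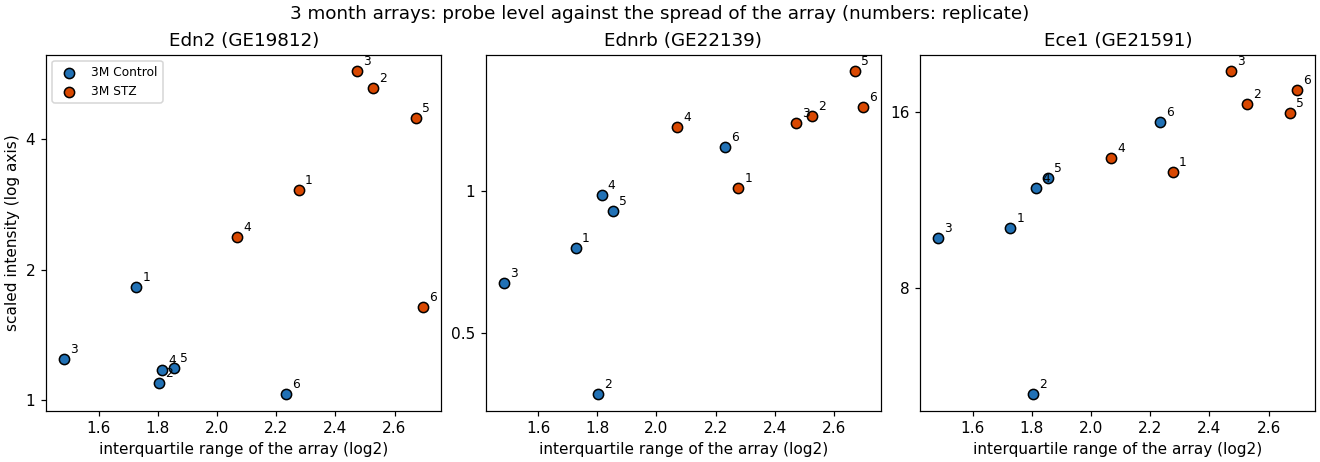
Scaled intensity (log axis) of Edn2, Ednrb GE22139 and Ece1 on the 3 month arrays against the interquartile range of log2 intensity on each array, with replicate numbers beside the points. Most STZ arrays lie further to the right (2.07 to 2.70) than the control arrays (1.48 to 2.23).

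With the test of the study's methods, which compares the groups of a time point without assuming equal variances, 15.8% of the tested probes were called higher in STZ at 3 months, at a p under 0.01 and 1.2-fold. Edn2 was the only probe of the system among them. After Benjamini-Hochberg adjustment its p was 0.045, and the adjusted p of Ednrb GE22139, Ednrb GE20507, Ece1 and Edn1 GE19811 was 0.0641, 0.0741, 0.0907 and 0.141.

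The wider pathway was read through lists of genes with known roles, each gene taken by its brightest tested probe. Over 5 lists, 52 of 82 genes had a probe and 39 were tested. At 3 months 28 of the 39 were called higher in STZ and 0 lower, with a median log2 difference of 0.65, against 50.5% of all probes and 0.44. Among the 15176 probes above the limit on all 24 arrays, 8990 were called higher, with a median of 0.50. The lists were not compared with probes of like brightness. At 1 month 0 of the 39 were called by limma. Genes with a probe under the limit are not in these counts. Of these, Mme, Gna12, Itpr2, Rock2, Nos2, Agt, Agtr1b, Adm, Lifr, Socs3 and Tgfb1 had lower mean log2 in 3M STZ than in 3M Control. Gnaq and Gata2 had higher means, and these differences were not tested. Over the whole array, 781 of 22025 tested probes were called lower at 3 months and 11130 higher. Without the filter 4792 of 33849 were called lower and 10879 higher.

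Of the enzymes that process or break down endothelins and other peptides, 3 of 9 genes were tested, and all 3 were called higher in STZ at 3 months. They were Pcsk7, a proprotein convertase (log2 difference 1.06, SE 0.22), Furin, the convertase that trims many precursors (0.63, SE 0.24), and Ecel1, a relative of the converting enzymes (0.56, SE 0.14). With quantile normalization Furin was not called (0.13). Mme, the remaining gene of this list with a probe, was under the limit. Its mean log2 was -0.045 in 3M Control and -1.27 in 3M STZ, and this difference was not tested.

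Receptor signaling was represented by 15 tested genes of 28, of which 11 were called higher and 0 lower (median 0.59). With quantile normalization 7 of the 15 were called, all higher. The largest differences were those of Src, a tyrosine kinase (log2 difference 1.26, SE 0.18, adjusted p = 4.3e-05 by limma), and Gnai2, an inhibitory G protein subunit (1.16, SE 0.22). The smallest were those of Prkcb, a protein kinase C (-0.11, SE 0.15), and Gna11, a G protein subunit that couples receptors to phospholipase C (0.04, SE 0.14), and neither was called.

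Among other vasoactive systems 6 of 8 tested genes were called higher (median 0.58), and 4 of 8 with quantile normalization. Ramp2, a partner of the adrenomedullin receptor (log2 difference 1.13, SE 0.17), and the cyclooxygenase Ptgs1 (0.98, SE 0.21) were highest. The inducible cyclooxygenase Ptgs2 (0.20, SE 0.16) and the angiotensin-converting enzyme Ace (0.34, SE 0.18) were lowest and were not called.

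The genes of photoreceptor stress and the Mueller glial response had a median log2 difference of 1.09, with 5 of 6 tested genes called higher. This was the highest median of the 5 lists under median scaling, but not with quantile normalization, where it was 0.67, against 0.72 for the regulators of endothelin transcription and 0.68 for the other vasoactive systems. Cebpd, a transcription factor of the acute phase (2.38, SE 0.33), and Vim, an intermediate filament protein of Mueller glia (1.53, SE 0.23), were highest. Lif, a cytokine known to act upstream of Edn2 in the injured retina, was called at 0.78 (SE 0.16). Stat3, which carries the signal of such cytokines, was not called (0.39, SE 0.20), and its probes disagreed, the other one giving -0.45. These 5 called genes remained called with quantile normalization.

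Of the regulators of endothelin transcription 3 of 7 tested genes were called higher (median 0.43, close to that of all probes). Smad3, a mediator of TGF-beta signaling (log2 difference 1.28, SE 0.28), and Jun, a subunit of AP-1 (1.06, SE 0.21), were highest. Rela, a subunit of NF-kappaB (0.13, SE 0.13), and Arnt, the partner of the hypoxia-inducible factors (0.31, SE 0.16), were lowest and were not called.

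**Figure D5:**
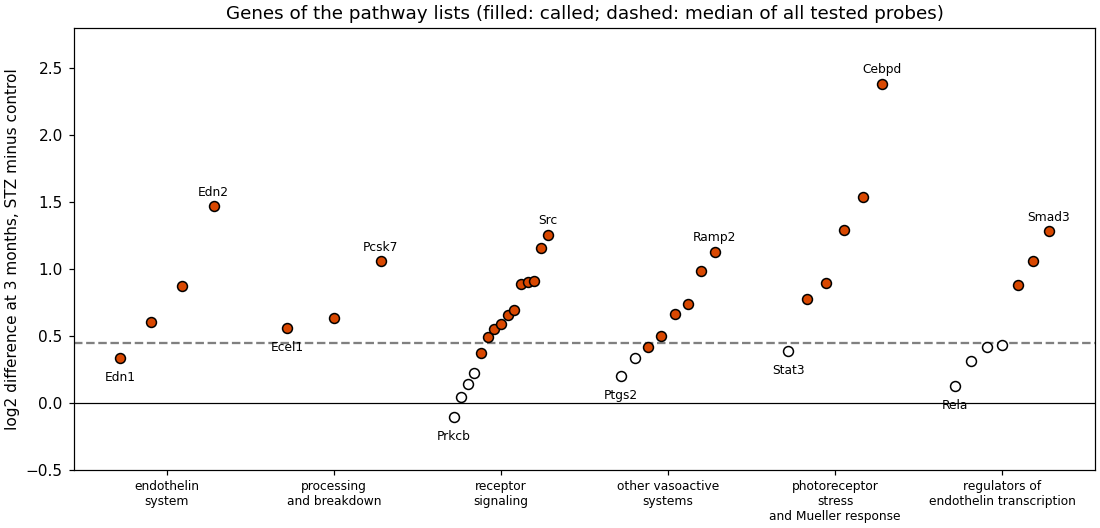
Log2 difference at 3 months (STZ minus control) of each tested gene in the endothelin system and in the 5 pathway lists, 1 point per gene and filled where called, with the highest and lowest gene of each list named. The dashed line is the median of all tested probes (0.44). Cebpd (2.38) lies highest and Prkcb (-0.11) lowest.

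Markers of cells and tissues that could carry these transcripts were set beside them. The endothelial markers with a probe were Kdr and Flt1, 2 of 11, and both were called at 3 months with a median log2 difference of 0.46, near the 0.44 of all tested probes, of which 50.5% were called higher. With quantile normalization neither was called (median 0.02). Of the pericyte and smooth muscle markers 2 of 5 tested were called higher (median 0.06). The astrocyte markers Gfap, S100b and Aldoc were all called higher (median 1.02), and 2 of the 3 were with quantile normalization (median 0.69). Of the tested Mueller glial markers 3 of 6 were called higher (median 0.54), a share near that of all probes. With quantile normalization 1 of these 6 was called, and their median was -0.25. Lens markers also moved with the groups: 2 of 3 tested, Crybb1 (1.59, SE 0.43) and Lgsn (2.20, SE 0.58), were called higher, although Crybb1 was not called with quantile normalization (0.64). The summed scaled intensity of the list was 19.8 to 55.8 on the 3M Control arrays and 68.2 to 155.8 on the 3M STZ arrays. At 1 month the lens sum was 28.9 to 71.9 in control and 4.02 to 75.8 in STZ arrays. The markers of ciliary body, iris and cornea, 2 of 5 tested, were both called higher (1 of 2 with quantile normalization), with sums of 2.13 to 4.97 and 5.17 to 11.9 on the 3M Control and 3M STZ arrays. The tested probes of Cdh1 disagreed, the one used giving 1.08 and the other -0.25. Of the markers with a probe in these lists, Cnn1 of pericytes and smooth muscle and Aqp4 of Mueller glia were under the limit for testing. The part of lens, anterior eye or glial RNA in the differences of Edn2, Ednrb and Ece1 was not tested.

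The genes with the pattern most like each probe of the system were searched among 2812 symbols over the 24 arrays, which share the array sets described above. For Edn2 the highest Pearson r of log2 levels was 0.91 with Stat3, followed by Gfap (0.90), the intermediate filament of reactive glia, and Dnph1 (0.89). For deviations from the group means it was 0.65 with Stat3, 0.59 with Prkaa2 and 0.57 with Slc28a2. Both measures thus placed Stat3 first for Edn2, although Stat3 itself was not called at 3 months.

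For Ednrb GE22139 the genes most alike were Tpsg1, Lypd8l1 and Tas2r119 by level (r of 0.97 each) and Tpsg1, Ncf1 and Fgf8 by deviation (r from 0.93 to 0.94). For Ednrb GE20507 they were Hamp (0.95), Pacsin1 (0.94) and Stat3 (0.93) by level, and Riox2 (0.68), Birc5 (0.62) and Col5a3 (0.59) by deviation. The lists of these probes of the same gene had no symbol in common. For Edn1 GE19811 they were Rheb, Lhb and Secisbp2 by level (r from 0.92 to 0.93) and Inpp5d, Dusp5 and Rheb by deviation (r from 0.89 to 0.92). For Ece1 they were Cib1, Ddx39b and Fdxr by level (r from 0.96 to 0.97) and Fuca1, Igf2r and Grin2c by deviation (r from 0.94 to 0.96). Deviations of Edn2 and Ednrb GE20507 were thus followed less closely by any other gene (highest r 0.65 and 0.68) than those of the other 3 probes (highest r 0.92 to 0.96).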

How the data were processed

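Retinal RNA was labelled and hybridized to CodeLink rat whole genome arrays, 1-color arrays on which each spot gives a brightness. The authors deposited, for each array, the background-subtracted intensity of each spot and a normalized version of it on a linear scale, which differs by 1 factor per array. Per the study's methods, the CodeLink software left out spots with manufacturing defects and subtracted the background. The background-subtracted intensity was used here. Each value was divided by the median of the 33849 rat probes of its array and converted to log2 with a floor of 0.01. Symbols were assigned through RefSeq accessions, and the files name no genome build. The 22025 probes above the 35th percentile were tested in R 4.3.3 by limma 3.58.1, which fitted all 4 groups together, with Benjamini-Hochberg adjustment over all tested probes. A probe was called at an adjusted p under 0.05 and 1.2-fold (no fold limit for the difference between time points). The model was tested on simulated data. Single probes were also compared by exact two-sided permutation of 12 arrays (924 arrangements).

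Groups came from the sample titles. Nothing in the labels ties an array to 1 animal, so p-values measure the spread between arrays. The number of arrays and the signal over background limit the precision. Members, gene lists, tests and alternatives were chosen with earlier results of these data known. The genes named are all members, the 2 highest and 2 lowest tested genes of each pathway list at 3 months, and the 3 symbols most correlated with each tested member probe. Gfap and markers of endothelium, pericytes and smooth muscle, Mueller glia, astrocytes, lens and anterior eye were named from the marker lists. Pathway genes whose probes were under the limit for testing were also named. Upstream sequences were those of RefSeq in GRCr8. Alternatives were quantile normalization, the deposited normalized values, subtraction of the 5th percentile, no filter, detection on all 24 arrays, a floor of 0.1, the array spread as a covariate, the methods' test, separate fits, a replicate block, array weights, and each array left out. The fits without a filter combined with another setting were added after seeing the data.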

Additional observations from a re-analysis of the deposited data

Results flagged for a closer look

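Among the 32 groups of 6 values (8 probes in 4 groups), 4 had a highest or lowest array set apart from the rest by more than Dixon's limit, and chance alone gives about 1 in 20 such groups. They were Edn2 on array 3M Control 1 (1.82), Edn1 GE21830 on array 3M STZ 3 (0.0318), Ednrb GE22139 on array 1M STZ 4 (2.15) and Ednra GE19813 on array 1M Control 1 (0.0707), all in scaled intensity. The Edn2 value was high within its control group. The effect of STZ on Ednrb GE22139 differed between 3 and 1 months by 0.86 on the log2 scale (adjusted p = 0.0388 by limma).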

How the results depend on the processing

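The 5 member probes called at 3 months became 3 with quantile normalization, 1 with detection on all 24 arrays, which left fewer probes tested, 1 with the methods' test, unadjusted or adjusted, and 0 with the array spread as a covariate. With 1 array left out they were 3 to 5, falling to 3 without 3M Control 2 or 3 or 3M STZ 2, 3, 5 or 6, and the member probes called at 1 month stayed at 0. The 1 member probe whose effect differed between time points became 0 with detection on all 24 arrays or with the spread covariate, 4 with array weights and 0 to 2 with 1 array left out. The 28 pathway genes called at 3 months became 0 with the spread covariate and 14 and 12 with the methods' test, unadjusted and adjusted, and were 22 to 31 with 1 array left out. Pathway genes called at 1 month stayed at 0 with 1 array left out and became 1 (Gna11) with array weights.

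Some log2 differences changed sign. With quantile normalization these were Ece1 at 3 months (-0.0056) and between time points (-0.13), and Ednra GE21822 (0.059 and 0.15). With the spread covariate they were Ece1 between time points (-0.13), Ednra GE21822 (0.39 and 0.55), and Ednra GE19813 at 1 month (-0.0062), 3 months (0.15) and between them (0.15). Array weights turned Edn1 GE19811 (0.0053) and Ednrb GE20507 (-0.11) at 1 month, and subtraction of the 5th percentile turned Edn1 GE21830 between time points (0.064). This last value is only the 1 month difference (-0.064) with its sign turned, because the 3 month group means were identical in that setting. With 1 array left out, 1 month differences spanned 0 for Edn1 GE19811 (-0.042 to 0.013), Edn1 GE21830 (-0.12 to 0.026), Ednra GE19813 (-0.12 to 0.067), Ednrb GE20507 (-0.10 to 0.16) and Ednrb GE22139 (-0.017 to 0.074), as did Ednra GE21822 between time points (-0.24 to 0.038). The causes were not tested.

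Edn2 at 3 months was 1.32 to 1.68 with 1 array left out, with adjusted p up to 0.00334 by limma. At 1 month the Edn2 difference was 0.15 (without 1M STZ 1) to 0.66 (without 1M STZ 5), and it was not called. The Edn1 GE19811 call was lost without any of 16 of the 24 arrays (1M Control 1 to 4 and 6, 1M STZ 2, 3 and 6, 3M Control 1 to 3, 3M STZ 1 to 3, 5 and 6, adjusted p up to 0.138) and with the replicate block (adjusted p = 0.0531), where 4 member probes were called at 3 months. The Edn1 GE19811 call was also lost with separate fits of the time points (adjusted p = 0.118 by limma). With array weights its log2 difference was 0.23 (adjusted p = 0.060 by limma), and it was not called. The replicate numbers were not shown to pair the arrays, since correlations of same-numbered arrays ranged from -0.24 to 0.25. Dim probes limit what these arrays show of Edn1 and Ednra.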
